A study of Homo sapiens with 12 samples.

Results

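RUES2 and H9, both established human embryonic stem cell lines, were compared in the primed state, with 3 RUES2 libraries set against 3 H9 libraries out of 12 libraries in the series. The comparison covered 13047 genes on chromosomes 1 to 22 that reached 1 FPKM in at least 3 of these 6 libraries, out of 23615 gene names in each table. FPKM is a level corrected for transcript length and for the number of mapped fragments in a library. H9 was at passages 31 to 35 and RUES2 at passages 30 to 33. Both lines grew on feeder layers of mouse embryonic fibroblasts treated with mitomycin C, in DMEM/F12 with 20% knockout serum replacement and 4 ng/mL bFGF. No transgene or drug is named for either group. RNA came from colonies picked by hand, so neighbouring feeder cells could enter a sample, and poly(A) RNA was sequenced. The 3 replicates of a line are called biological in the design text with nothing on how the cultures were kept apart, and p-values here measure only the spread among the 6 libraries. Each line comes from a single embryo, so a difference between the groups is a difference between these 2 lines as cultured.

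Primed human embryonic stem cells resemble the epiblast around implantation. They depend on FGF and on NODAL or activin signalling and express POU5F1, SOX2 and NANOG. Lines from different embryos differ in genotype, and cultured lines are known to differ from each other and between sublines in DNA methylation at some promoters and in imprinting. Such differences often appear as genes that are silent in 1 line and active in another.

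The 6 libraries stood close to each other. Without short RNAs, the correlation of log2(FPKM + 1) across genes ran from 0.963 to 0.989 between libraries of the same line and from 0.962 to 0.975 between lines. The first principal component, with 27.3% of the variance, placed all 3 H9 libraries on one side and all 3 RUES2 libraries on the other. H9 replicate 2 nevertheless correlated more with RUES2 replicate 3 (0.972) than with H9 replicate 3 (0.963). The tables hold no read counts, and their confidence bounds imply a median of 47.9 to 101 fragments for genes between 1 and 2 FPKM. Short RNAs, which poly(A) selection captures poorly, took 35.6% to 44.6% of the summed FPKM. A check for mixed-up samples found that 3 of the 12 libraries in the series did not match the primed libraries of their labelled line, and 0 of the 6 primed libraries were among them.

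Between the lines, 29 of 13047 genes (0.222%) passed limma's test at an adjusted p under 0.05. Of these, 25 were higher in RUES2 (0.192%) and 4 were lower (0.0307%). At an unadjusted p under 0.05, 770 genes were higher and 454 lower. Levels did not overlap between the 3 and 3 libraries for 1106 genes with RUES2 higher (8.48%) and for 805 genes with RUES2 lower (6.17%). The median log2 difference over all genes was 0.02. A limma fit on all 12 libraries called 195 genes higher and 70 lower (2.03% in all), among them 28 of the 29. The spread within a group, as the median SD of log2 levels, was 0.143 to 0.171 in the primed groups and 0.082 to 0.118 in the naive groups. For 3 against 3 libraries an exact permutation test of a single gene cannot go below 0.1, so single-gene p-values rest on the model across genes. Differences are on the log2(FPKM + 1) scale, which understates the change of genes of low level.

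**Figure D1:**
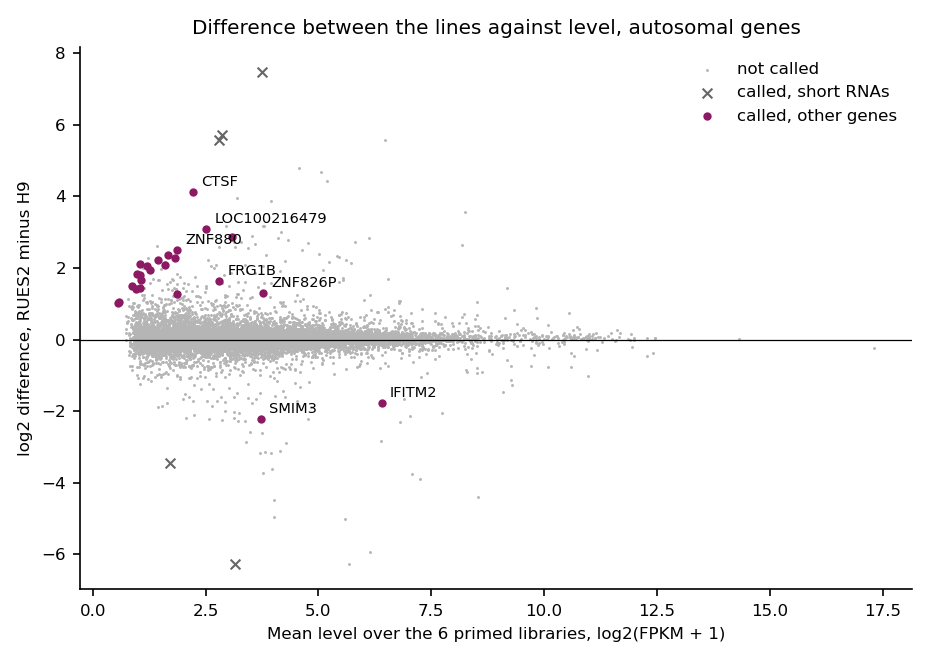
Difference between the lines (vertical axis, log2 RUES2 minus H9) against the mean level over the 6 primed libraries (horizontal axis, log2(FPKM + 1)) for 13047 genes, each a point. Of the 24 called genes that are not short RNAs, 22 lie above 0 and 2 (SMIM3 and IFITM2) below.

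Of the 29 called genes, 24 are not short RNAs, and 22 of these were higher in RUES2. Of the 22, 18 had a mean under 1 FPKM in H9, and 16 were under 1 FPKM in every H9 library. Those 16 passed the filter only through the RUES2 libraries, so their low H9 levels are a description. CTSF, which encodes the lysosomal cysteine protease cathepsin F (chr11:66330935-66336047, hg19), had the largest difference. Its levels were 0.0779, 0.0395 and 0.276 FPKM in the H9 libraries and 17.7, 21.6 and 16.6 FPKM in the RUES2 libraries. The log2 difference was 4.11 ± 0.14 (SE, adjusted p = 0.000321, limma). Its tested neighbours did not share the difference. ACTN3, which ends 136 bases before CTSF and encodes a muscle actinin, lay between 7.71 and 14.3 FPKM in H9 and between 11.3 and 19.9 FPKM in RUES2.

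The promoter sequences of 4 genes are shown because each gene was at or near 0 in 1 line, or, for SMIM3, was lower in RUES2. They are the 250 bases before and the first 50 bases after the gene start in RefSeq (GRCh38.p14), written 5′ to 3′ on the gene's strand, with CG dinucleotides, the sites of DNA methylation, in capitals. CTSF (chr11:66568557-66568856, minus strand) holds 22 CG, and 37.9% of the 33725 autosomal promoters in that table hold at least as many. ZNF560 (chr19:9498567-9498866, minus strand) holds 16, a number that 47.6% of promoters reach. ZNF736 (chr7:64313711-64314010, plus strand) holds 9, which 58.3% of promoters reach. SMIM3 (chr5:150778507-150778806, plus strand) holds 27, which 28.4% of promoters reach. Methylation was not measured.
CTSF: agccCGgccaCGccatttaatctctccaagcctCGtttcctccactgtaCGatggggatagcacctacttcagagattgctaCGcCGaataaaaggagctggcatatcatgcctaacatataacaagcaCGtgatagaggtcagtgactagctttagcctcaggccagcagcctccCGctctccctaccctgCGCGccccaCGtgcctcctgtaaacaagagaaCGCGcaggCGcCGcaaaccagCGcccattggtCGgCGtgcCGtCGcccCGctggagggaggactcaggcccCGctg
ZNF560: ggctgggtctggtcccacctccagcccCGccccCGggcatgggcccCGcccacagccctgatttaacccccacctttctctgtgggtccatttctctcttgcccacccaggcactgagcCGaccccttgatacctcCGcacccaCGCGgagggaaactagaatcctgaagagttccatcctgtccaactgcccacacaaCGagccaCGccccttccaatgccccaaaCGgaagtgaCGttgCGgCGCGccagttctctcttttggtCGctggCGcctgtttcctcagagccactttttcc
ZNF736: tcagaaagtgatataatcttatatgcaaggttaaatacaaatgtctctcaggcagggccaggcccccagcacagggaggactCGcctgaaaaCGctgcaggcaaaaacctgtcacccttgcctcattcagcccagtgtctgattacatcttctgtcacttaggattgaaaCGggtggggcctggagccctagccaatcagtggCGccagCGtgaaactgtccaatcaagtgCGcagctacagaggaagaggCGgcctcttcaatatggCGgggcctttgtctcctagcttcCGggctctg
SMIM3: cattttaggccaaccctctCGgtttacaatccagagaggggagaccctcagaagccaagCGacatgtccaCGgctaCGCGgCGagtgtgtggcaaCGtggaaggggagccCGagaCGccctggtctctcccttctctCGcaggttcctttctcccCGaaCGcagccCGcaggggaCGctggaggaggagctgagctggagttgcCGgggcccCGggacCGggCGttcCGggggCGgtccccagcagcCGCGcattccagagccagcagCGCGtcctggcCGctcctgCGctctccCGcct

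Zinc finger genes made up 7 of the 22 genes higher in RUES2. Most genes of this family encode DNA-binding proteins, many of them with a KRAB domain that recruits silencing machinery, and many stand in clusters on chromosome 19. ZNF560, the gene of the second promoter shown, was listed at 0 in all 3 H9 libraries and at 2.66, 4.38 and 2.96 FPKM in RUES2 (chr19:9577031-9609279, hg19, adjusted p = 0.00982, limma). ZNF736 on chromosome 7 stood at 0.0541, 0.0153 and 0.0725 FPKM in H9 and at 2.38, 3.54 and 2.29 FPKM in RUES2 (adjusted p = 0.012, limma). Both were thus active in every RUES2 library and silent, or nearly so, in every H9 library.

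ZNF880 rose from 0.446, 0.252 and 1.04 FPKM in H9 to 6.84, 10.5 and 6.35 FPKM in RUES2, a log2 difference of 2.50 ± 0.25 (SE, adjusted p = 0.0215, limma). ZNF208 was at 0.0804, 0.0999 and 0.144 FPKM in H9 and at 2.05, 3.91 and 2.90 FPKM in RUES2 (log2 difference 1.81, adjusted p = 0.025, limma). The transcribed pseudogene ZNF826P was already expressed in H9, at 7.02, 8.78 and 7.69 FPKM, and reached 21.1, 23.2 and 17.6 FPKM in RUES2. Outside chromosome 19, ZNF502 and ZNF662 on chromosome 3 were under 0.5 FPKM in each H9 library and at 2.08 to 4.15 FPKM in RUES2. In ZNF880, ZNF208, ZNF826P, ZNF560, ZNF736 and ZNF662, RUES2 replicate 2 had the highest level of the 6 libraries.

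Over all 440 tested genes with ZNF names, 7 were called higher and 0 lower, beside 0.192% and 0.0307% of all genes. Of the 7, ZNF560, ZNF736, ZNF208, ZNF502 and ZNF662 were under 1 FPKM in every H9 library. These entered the comparison only through RUES2, so their part in the count is a description. The fit on all 12 libraries called 28 higher and 0 lower. Levels did not overlap for 69 with RUES2 higher and 19 with RUES2 lower, beside 8.48% and 6.17% of all genes. The median log2 difference of 0.04 was close to the 0.02 of all genes, and most members were not apart in either direction. The 221 tested zinc finger genes of chromosome 19 had more positive differences: 4 were called higher and 0 lower, 48 did not overlap with RUES2 higher and 3 with RUES2 lower, and the median was 0.09. Of the 221, 151 had a positive difference. In this list 8 genes were under 1 FPKM in every H9 library and therefore entered the comparison through RUES2. Single libraries moved with these values: RUES2 replicate 2 was the highest of the 6 at 121 of the 221 and H9 replicate 1 the lowest at 101. The summed levels overlapped, at 927, 1060 and 1093 FPKM in H9 and at 1156, 1302 and 1051 FPKM in RUES2. The part of these 2 libraries in the result was not tested.

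Several zinc finger genes of chromosome 19 had separate levels in the lines without passing the test on 6 libraries with short RNAs included. ZNF542 was at 1.55, 2.43 and 1.91 FPKM in H9 and at 5.89, 9.58 and 6.90 FPKM in RUES2 (adjusted p = 0.0631, 0.000829 with all 12 libraries and 0.0377 on 6 with short RNAs left out, limma). ZNF667 was at 0.101, 0.0705 and 0.0887 FPKM in H9 against 2.03, 7.41 and 2.27 FPKM (adjusted p = 0.181 with 6 libraries and 0.017 with 12, limma). As it was under 1 FPKM in every H9 library, it entered the comparison only through RUES2. In ZNF667 the spread among RUES2 libraries came from replicate 2, which stood far above the other two. The opposite direction was rare: ZNF558 was at 9.16, 7.52 and 8.77 FPKM in H9 and at 2.98, 6.56 and 2.33 FPKM in RUES2 (adjusted p = 0.336 with 6 libraries and 0.0716 with 12, limma).

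**Figure D2:**
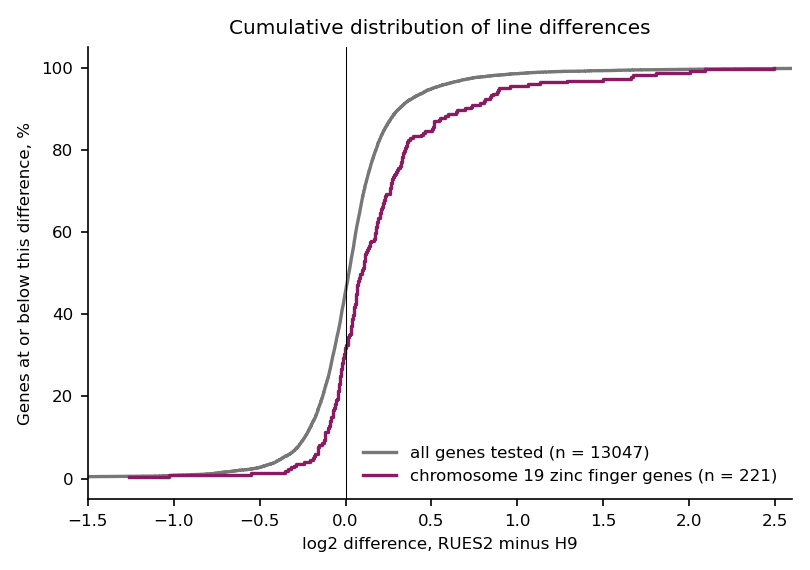
Cumulative share of genes (vertical axis, percent) at or below each log2 difference between the lines (horizontal axis, RUES2 minus H9) for all 13047 genes and for the 221 zinc finger genes of chromosome 19. The curve of the zinc finger genes runs to the right of that of all genes, with medians of 0.09 and 0.02.

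Chromosome 19 also had the highest median log2 difference of the 22 autosomes, 0.07, and the lowest was -0.04 on chromosome 21. The 221 zinc finger genes above are among the 1025 genes tested on chromosome 19. In windows of 20 consecutive tested genes, the largest median was 0.29 at chr19:52359056-53103405 (hg19). This stretch runs from ZNF577 to ZNF137P and holds ZNF880. Of its 20 genes, 19 had a positive difference and 1 (ZNF880) was called, beside 0.222% of all genes called. Levels did not overlap for 8 with RUES2 higher and 0 with RUES2 lower, beside 8.48% and 6.17% of all genes. The stretch was chosen for its large median, so these counts follow in part from that choice and carry no test. Next to ZNF880, ZNF528 was at 0.531, 0.549 and 0.604 FPKM in H9 and at 3.08, 7.44 and 2.50 FPKM in RUES2 (adjusted p = 0.188, limma). Being under 1 FPKM in every H9 library, ZNF528 entered the comparison only through RUES2.

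Some neighbours of other called genes were apart in the same direction, and none of those printed here was called on the 6 libraries. C7orf29 lies inside LRRC61 on chromosome 7. C7orf29 was at 0.132, 0.709 and 0.665 FPKM in H9 and at 5.05, 5.51 and 5.20 FPKM in RUES2 (adjusted p = 0.012, limma). LRRC61 was at 0.399, 3.78 and 4.89 FPKM in H9 and at 21.5, 22.8 and 20.4 FPKM in RUES2 (adjusted p = 0.175, limma). H9 replicate 1 was the lowest library at both.

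CCDC152 was at 0.0858, 0.339 and 0.373 FPKM in H9 and at 4.90, 5.10 and 4.55 FPKM in RUES2, a log2 difference of 2.22 ± 0.13 (SE, adjusted p = 0.00392, limma). It overlaps SEPP1, the gene of the selenium carrier selenoprotein P, which was at 6.85, 5.03 and 8.33 FPKM in H9 and at 24.2, 22.9 and 14.6 FPKM in RUES2 (adjusted p = 0.128, limma). LOC399815 on chromosome 10 was under 0.06 FPKM in H9 and at 1.07, 1.27 and 1.08 FPKM in RUES2. FAM24B, which overlaps it, was at 0.16, 0.199 and 0 FPKM in H9 and at 4.17, 2.05 and 4.97 FPKM in RUES2 (adjusted p = 0.0615, and 0.0352 with short RNAs left out, limma). LOC399815 and FAM24B were under 1 FPKM in every H9 library and entered the comparison only through RUES2. No source used here says whether the libraries kept strand, so reads of overlapping genes cannot be told apart. Over the 48 pairs of a called gene and an adjacent tested gene, 25 neighbours had the sign of the called gene, and in 11 of these the lines did not overlap. In 8 pairs, CEBPZ and CCS among the neighbours, the lines were apart in the opposite direction. Over all genes 8.48% and 6.17% were apart in each direction.

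Among the remaining genes higher in RUES2, 2 lie near each other on chromosome 2. LOC100505876 (chr2:37423635-37431886, hg19) was at 1.56, 1.70 and 3.64 FPKM in H9 and at 25.2, 17.1 and 24.4 FPKM in RUES2. QPCT (chr2:37571753-37600465, hg19), which encodes the enzyme that forms pyroglutamate at peptide ends, was at 0, 0.191 and 0.222 FPKM in H9 and at 3.37, 3.48 and 4.24 FPKM in RUES2. CEBPZ, which overlaps LOC100505876, lay the other way at 73.0 to 89.9 FPKM in H9 and 56.2 to 66.0 FPKM in RUES2, with an adjusted p of 0.286 in limma.

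LOC100216479, also on chromosome 2, was at 0.555, 1.22 and 1.21 FPKM in H9 and at 14.9, 20.6 and 12.5 FPKM in RUES2 (log2 difference 3.08 ± 0.22, SE, adjusted p = 0.00746, limma). GRHL3, a transcription factor of surface ectoderm, was at 0.425, 0.487 and 0.978 FPKM in H9 and at 10.3, 6.77 and 4.59 FPKM in RUES2 (adjusted p = 0.0461, limma). The call of GRHL3 was lost whichever of the 6 libraries was left out, as were those of ZNF826P, CALCB, MGC21881, LOC399815 and LOC100130417.

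The other genes called higher had low levels. CR1L, a relative of complement receptor 1, was at 0.238, 0.0328 and 0.272 FPKM in H9 and at 3.26, 1.89 and 3.10 FPKM in RUES2. TUSC1 was at 0, 0.158 and 0.122 FPKM in H9 and at 2.14, 1.87 and 2.31 FPKM in RUES2. CALCB, which encodes a calcitonin gene-related peptide, was at 0, 0.389 and 0.201 FPKM in H9 and at 2.30, 1.91 and 2.35 FPKM in RUES2. LOC100130417 was likewise near 0 in H9 and close to 1 FPKM in each RUES2 library, and MGC21881 was at 1.24 to 1.45 FPKM in H9 and 4.10 to 5.10 FPKM in RUES2. All 5 were apart between the lines, with adjusted p-values of 0.011 to 0.0461 in limma.

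The lower genes were few. SMIM3, which encodes a small membrane protein (chr5:150157508-150176298, hg19), was at 33.4, 29.6 and 21.1 FPKM in H9 and at 5.32, 5.52 and 4.56 FPKM in RUES2, a log2 difference of -2.22 ± 0.18 (SE, adjusted p = 0.00982, limma). IFITM2, an interferon-induced membrane protein that restricts virus entry, was at 173, 127 and 170 FPKM in H9 and at 42.8, 43.6 and 47.8 FPKM in RUES2, a log2 difference of -1.77 ± 0.14 (SE, adjusted p = 0.00982, limma). IFITM2 is close in sequence to other IFITM genes, so reads may have been shared between copies. Over the interferon-stimulated list, IFITM2 was the only member of 16 tested that was called on 6 libraries, beside 0.222% of all genes. The list's median log2 difference was 0.09. Of the 16, 3 were apart with RUES2 higher and 1 with RUES2 lower, beside 8.48% and 6.17% of all genes. ISG20 was under 1 FPKM in every H9 library and entered only through RUES2. With all 12 libraries, 1 (DDX58) was called higher and 1 (IFITM2) lower.

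**Figure D3:**
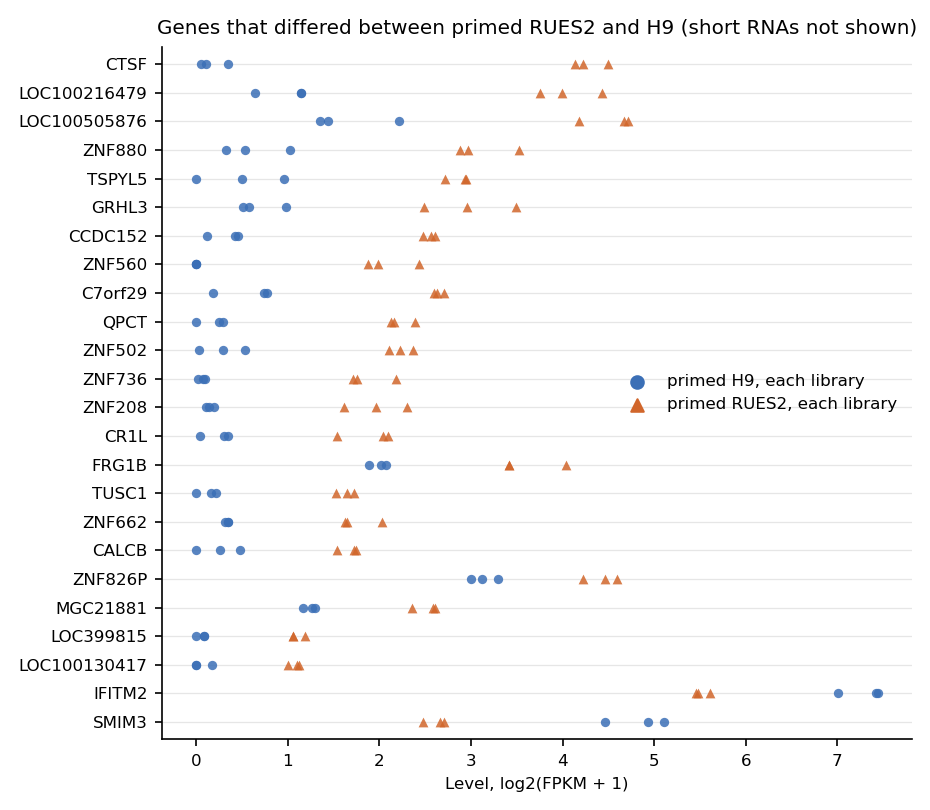
Levels (horizontal axis, log2(FPKM + 1)) of the 24 called genes that are not short RNAs in each of the 3 H9 libraries (circles) and 3 RUES2 libraries (triangles), ordered by log2 difference. The 22 upper genes have every RUES2 library above every H9 library, and IFITM2 and SMIM3 the reverse.

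At a rule of 1 FPKM or more in all 3 libraries of 1 line and 0.1 FPKM or less in all 3 of the other, 4 genes that are not short RNAs qualified, each active in RUES2. These were ZNF560, ZNF736, LOC399815 and LOC100128252. The last, on chromosome 19, was at 0, 0.0877 and 0.0907 FPKM in H9 and at 1.41, 12.01 and 3.28 FPKM in RUES2, too uneven among the RUES2 libraries to pass (adjusted p = 0.274, limma). Another 5 were short RNAs, SNORD24, SNORD123 and MIR940 in RUES2 and SNORA37 and MIR590 in H9, each listed at 0 in the other line. They are the 5 called short RNAs, and their values rest on few fragments over a short length.

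Libraries of the same line also differed from each other by large steps at single genes. Genes were counted at which 1 library lay at least 2 log2 units above, or at least 2 below, both other libraries of its line. There were 17 such genes in RUES2 replicate 2, 3 in RUES2 replicate 1 and 2 in RUES2 replicate 3. In H9 there were 7, 19 and 12 in replicates 1, 2 and 3. In RUES2, replicate 2 thus stood apart, and in H9 replicate 2 had the most such genes. The genes below were chosen because of this difference, so their levels are a description and carry no test.

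CHCHD2, which encodes a mitochondrial protein, was at 226, 216 and 192 FPKM in H9. In RUES2 it was at 35.0 FPKM in replicate 1, 239 FPKM in replicate 2 and 33.9 FPKM in replicate 3. C11orf74 showed the same arrangement, with 20.2, 16.9 and 18.0 FPKM in H9 and 1.35, 15.6 and 1.56 FPKM in RUES2. At both genes, RUES2 replicate 2 was at the H9 level and the other RUES2 libraries were well below it.

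The homeobox gene IRX2 was at 17.4, 11.7 and 10.6 FPKM in H9 and at 0.59, 27.1 and 0.634 FPKM in RUES2, and the adjacent C5orf38 at 3.09, 1.51 and 2.67 against 0.202, 5.94 and 0.122 FPKM. UNC5D, a netrin receptor, was at 6.73, 9.42 and 7.74 FPKM in H9 and at 0, 6.37 and 0 FPKM in RUES2. PTPRD, a receptor tyrosine phosphatase, was at 5.39, 7.76 and 5.48 FPKM in H9 and at 0.191, 6.82 and 0.207 FPKM in RUES2. DPP10, GLT1D1, ZNF714 and LOC389023 had this arrangement too. So did 3 genes below the size rule: DPP6 at 0, 1.57 and 0 FPKM in RUES2, TCERG1L at 0, 1.45 and 0, and TMEM132D at 0, 1.91 and 0, all between 0.884 and 5.24 FPKM in each H9 library. DPP6, TCERG1L and TMEM132D are on the list of genes reported as variably methylated among pluripotent lines, as are IRX2 and, named below, MEG3 and NNAT.

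Imprinted genes were among them. NDN, expressed from the paternal allele in the Prader-Willi region, was at 12.4, 19.4 and 12.4 FPKM in H9 and at 1.51, 18.2 and 2.42 FPKM in RUES2. SNRPN from the same region did not share this, at 467 to 644 FPKM in H9 and 491 to 553 FPKM in RUES2. NLRP2 went the other way, at 39.9, 42.3 and 40.1 FPKM in H9 and at 63.3, 0.445 and 66.8 FPKM in RUES2. The maternally expressed long RNA MEG3, which missed the filter, was under 0.5 FPKM in each H9 library and at 45.2, 0.387 and 33.2 FPKM in RUES2. DLK1, the paternally expressed gene of the MEG3 locus, was at 0.204, 31.5 and 7.48 FPKM in H9 and at 4.59, 21.6 and 3.50 FPKM in RUES2. NLRP2 and MEG3 were thus active in RUES2 replicates 1 and 3 and nearly silent in replicate 2.

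The remaining genes of this set were the forebrain factors SIX3 and LHX5 above the other RUES2 libraries and NNAT and S100A14 below. SIX3 was at 0.745, 12.5 and 0.271 FPKM in RUES2. The neural ectoderm list summed to 107 to 181 FPKM in RUES2 and 150 to 220 FPKM in H9, with RUES2 replicate 2 at 173 FPKM. Most of that 173 FPKM came from TUBB3 (73.2 FPKM) and NES (46.0 FPKM). The marker PAX6, which missed the filter, was at 1.33 FPKM in RUES2 replicate 2 and at 1.57 FPKM in H9 replicate 2. The part of cell composition in these levels was not tested. Over the genotype-dependent list, all 12 libraries of the series were nearer to their own group than to the other line in the same state. The 3 libraries that did not match the primed libraries of their labelled line passed this too. It therefore does not show which line a library, RUES2 replicate 2 included, came from.

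**Figure D4:**
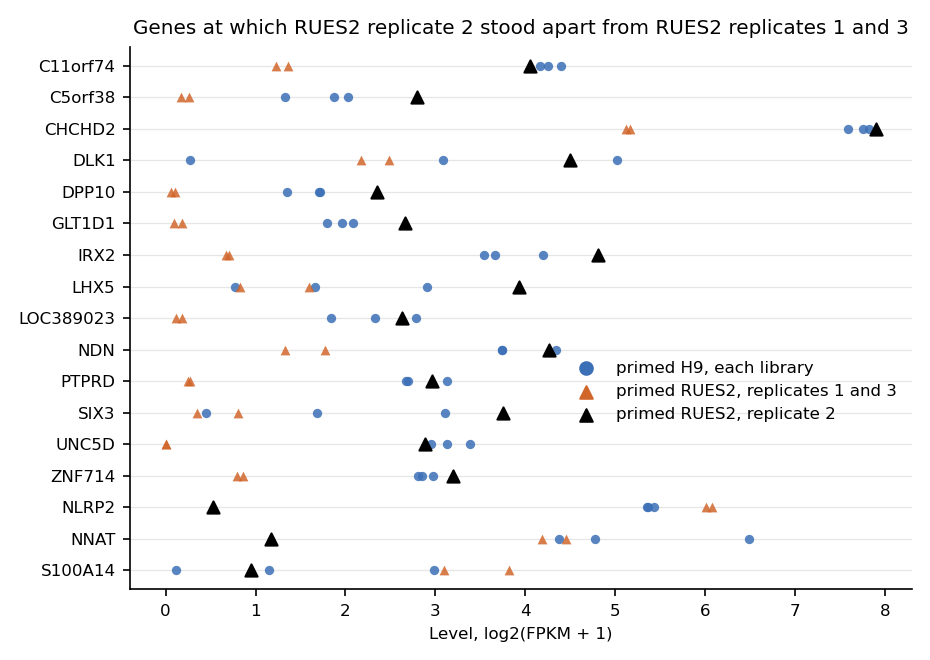
Levels (horizontal axis, log2(FPKM + 1)) of the 17 genes at which RUES2 replicate 2 (black triangles) lay at least 2 log2 units from both other RUES2 libraries, with RUES2 replicates 1 and 3 as orange triangles and the 3 H9 libraries as circles. In CHCHD2, C11orf74, NDN, PTPRD, UNC5D and ZNF714 the black triangle lies at or near the H9 values, and in NLRP2, NNAT and S100A14 it lies below the orange triangles.

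The line comparison depended on this library. Without RUES2 replicate 2, limma called 24 genes higher and 20 lower, of which 14 of the lower genes are not short RNAs. Those 14 include CHCHD2, C11orf74, IRX2, UNC5D, PTPRD, NDN, GLT1D1, TMEM132D and ZNF714, all of which had adjusted p-values of 0.257 or more with all 6 libraries. These genes were named above because RUES2 replicate 2 differed from the other RUES2 libraries. Their calls without that library follow from this choice and are no test of a difference between the lines. In the fit without RUES2 replicate 2, FAM24B, TTR, ZNF667, USP32P1, ZNF528 and the short RNA SNORD12B were added among the higher genes.

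In H9, replicate 2 stood apart at NODAL signalling. NODAL is a TGF-beta family ligand, and LEFTY1 and LEFTY2 are its secreted inhibitors and targets. LEFTY1 was at 420, 7.32 and 501 FPKM in H9 and at 95.9, 47.8 and 78.3 FPKM in RUES2. LEFTY2 was at 198, 4.58 and 282 FPKM in H9 and at 138, 85.3 and 79.9 FPKM in RUES2. NODAL was at 44.5, 3.32 and 42.9 FPKM in H9 and at 19.1, 10.8 and 27.6 FPKM in RUES2. All 3 genes were lowest in H9 replicate 2, and the H9 range covered the whole RUES2 range, and none of the 3 passed the test between the lines (adjusted p from 0.939 to 0.987, limma).

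The pathway as a whole showed no call among 25 tested members, and 1 member did not overlap in each direction. H9 replicate 2 was the lowest of the 6 libraries at 11 of the 25. It was also the highest at 20 of 22 cholesterol synthesis genes, whose summed levels were 961, 1760 and 627 FPKM in H9 and 655, 773 and 1069 FPKM in RUES2. HMGCS1, an early enzyme of that pathway, was at 51.4, 137 and 22.8 FPKM in H9 and at 28.9, 42.3 and 64.3 FPKM in RUES2. Of the 22 cholesterol synthesis genes, 0 had a positive difference between the lines, and the median log2 difference was -0.31. Of these, 0 were apart with RUES2 higher and 1 with RUES2 lower, beside 8.48% and 6.17% of all genes. No member of this list was called in either direction in the 6-library or the 12-library fit. H9 replicate 3 was the lowest library at 20 of 24 proliferation genes, with a summed level of 1552 FPKM against 1915 to 2086 FPKM in the other 5 libraries.

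The identity genes of pluripotency did not pass the test between the lines. POU5F1 was at 956.5, 790 and 983 FPKM in H9 and at 791, 666 and 880 FPKM in RUES2 (adjusted p = 0.74, limma). SOX2 was at 109, 96.9 and 97.5 FPKM in H9 and at 104, 136 and 85.6 FPKM in RUES2. NANOG was at 81.5, 51.2 and 100.4 FPKM in H9 and at 55.9, 33.2 and 63.4 FPKM in RUES2 (adjusted p = 0.647). The lines overlapped at all 3 genes, and both lines thus expressed the defining markers of the labelled cell type. POU5F1 and NANOG have processed copies elsewhere in the genome, so their levels are uncertain.

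LIN28A, an RNA-binding protein of pluripotent cells, was at 365, 401 and 347 FPKM in H9 and at 444, 422 and 433 FPKM in RUES2, without overlap (log2 difference 0.22, adjusted p = 0.546, limma). DNMT3B, the main de novo DNA methyltransferase of primed cells, was at 373, 254 and 325 FPKM in H9 and at 418, 440 and 358 FPKM in RUES2 (adjusted p = 0.578). ZFP42, TDGF1, TERF1, L1TD1, ZIC2 and OTX2 overlapped between the lines, with log2 differences from -0.82 for ZIC2 to 0.24 for OTX2. Of 22 tested core pluripotency genes, 0 were called in the 6-library or the 12-library fit, and the median log2 difference was 0.09.

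Among 21 tested primed epiblast genes, 0 passed in the 6-library fit and 1, VIM, in the 12-library fit. Of the 21, 6 had a positive difference, and the median log2 difference was -0.17. In this list 1 gene was apart with RUES2 higher and 2 with RUES2 lower, beside 8.48% and 6.17% of all genes. Summed levels, VIM included, did not overlap, at 1293 to 1319 FPKM in H9 and 977 to 1041 FPKM in RUES2. VIM encodes the intermediate filament vimentin and was at 296, 160 and 225 FPKM in H9 and at 92.3, 94.8 and 135 FPKM in RUES2 (log2 difference -1.05, adjusted p = 0.265 with 6 libraries and 0.0392 with 12, limma). VIM is also abundant in fibroblasts. The fibroblast and stroma list summed to 663 to 1205 FPKM in H9 and 617 to 1012 FPKM in RUES2, and its median log2 difference was -0.23 with 0 of 21 called. The part of feeder cells in the VIM levels was not tested. In bulk samples, fewer cells of a type and less RNA per cell cannot be told apart.

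Of 16 tested naive pluripotency genes, 0 were called on 6 libraries, 13 had a positive difference, and the median log2 difference was 0.55. Of the 16, 2 were apart with RUES2 higher and 1 with RUES2 lower, beside 8.48% and 6.17% of all genes. TBX3 was under 1 FPKM in every H9 library and entered only through RUES2. Summed levels overlapped, at 24.3 to 64.5 FPKM in H9 and 53.1 to 97.9 FPKM in RUES2. KLF5 was at 0.471, 0.614 and 1.11 FPKM in H9 and at 3.03, 2.46 and 2.23 FPKM in RUES2 (adjusted p = 0.132 with 6 libraries and 0.0357 with 12, limma). SUSD2, a surface marker, lay the other way at 1.54, 1.81 and 2.53 FPKM in H9 against 0.743, 0.804 and 0.548 FPKM.

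Markers of early endoderm had positive differences, without a call on 6 libraries when short RNAs were included. All 12 tested definitive endoderm genes had positive differences, and 3 (APOA2, TTR and HHEX) passed with all 12 libraries. Of the 12, 7 were apart with RUES2 higher and 0 with RUES2 lower, beside 8.48% and 6.17% of all genes tested. APOA2, an apolipoprotein of yolk sac and liver, was at 0.787, 6.91 and 5.98 FPKM in H9 and at 55.8, 33.1 and 36.4 FPKM in RUES2 (adjusted p = 0.159 with 6 libraries and 0.0157 with 12, limma). TTR, the carrier transthyretin, was at 0, 0.198 and 0.0766 FPKM in H9 and at 4.68, 10.4 and 3.41 FPKM in RUES2 (adjusted p = 0.0644 and 0.00324, and 0.0352 on 6 libraries with short RNAs left out). TTR entered the comparison through RUES2 alone, since it was under 1 FPKM in every H9 library.

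GATA4, a transcription factor of endoderm and heart, was at 0.815, 1.41 and 1.21 FPKM in H9 and at 3.91, 4.20 and 3.07 FPKM in RUES2 (adjusted p = 0.0801, limma). The endoderm factors SOX17 and FOXA2 were low and overlapped between the lines. SOX17 was at 1.35, 2.12 and 1.03 FPKM in H9 and at 2.74, 2.06 and 3.51 FPKM in RUES2. The summed level of the endoderm list was 57.3 to 209 FPKM in H9 and 277 to 412 FPKM in RUES2. The part of differentiated cells in the picked colonies was not tested.

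The trophectoderm and amnion list had the same shape, with 7 of 12 tested members apart and higher in RUES2, 0 apart and lower, and a median log2 difference of 0.83, beside 8.48% and 6.17% of all genes apart. Of the 12, 3 (TFAP2A, GATA3 and TBX3) were under 1 FPKM in every H9 library and entered only through RUES2. TFAP2A was at 0, 0.255 and 0.381 FPKM in H9 and at 5.19, 3.66 and 2.15 FPKM in RUES2 (adjusted p = 0.0801 with 6 libraries, 0.017 with 12 and 0.0487 on 6 with short RNAs left out, limma). GATA3 was at 0, 0.798 and 0.194 FPKM in H9 and at 4.37, 1.52 and 1.88 FPKM in RUES2 (adjusted p = 0.267 and 0.0304). The trophoblast markers ELF5 and CGA were under 0.5 FPKM in every library. Summed levels overlapped between the lines, at 348 to 510 FPKM in H9 and 470 to 813 FPKM in RUES2.

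BMP signalling genes had a similar arrangement. Of 18 tested, 8 were apart with RUES2 higher and 1 with RUES2 lower, beside 8.48% and 6.17% of all genes, and the median log2 difference was 0.67. With all 12 libraries 4 passed (ID4, GATA3, BMP2 and NOG), of which GATA3 and NOG were under 1 FPKM in every H9 library and entered only through RUES2. The ligand gene BMP4 was at 4.57, 6.04 and 4.45 FPKM in H9 and at 18.1, 9.83 and 13.3 FPKM in RUES2 (adjusted p = 0.151, limma). ID1, a direct target of the pathway, was at 92.0, 41.8 and 116 FPKM in H9 and at 207, 168.5 and 120 FPKM in RUES2 (adjusted p = 0.465). Among the targets, ID4 was at 1.48, 3.26 and 3.00 FPKM in H9 and at 10.1, 11.5 and 4.97 FPKM in RUES2 (adjusted p = 0.254 and 0.0437).

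Other signalling and marker lists held few or no calls. Of 25 tested FGF and ERK targets, 0 were apart with RUES2 higher and 3 with RUES2 lower, beside 8.48% and 6.17% of all genes. IER3, an immediate early gene, was at 23.5, 18.8 and 20.6 FPKM in H9 and at 7.41, 4.26 and 9.86 FPKM in RUES2 (adjusted p = 0.152 with 6 libraries and 0.0208 with 12, limma). Of 18 tested WNT and beta-catenin targets, 6 were apart with RUES2 higher, beside 8.48% of all genes, such as AXIN2 at 9.07, 7.45 and 5.93 FPKM in H9 and at 11.9, 10.03 and 10.9 FPKM in RUES2, and 0 were called in either fit. Of the 18, 1 (LGR5) was under 1 FPKM in every H9 library and entered only through RUES2. The mesendoderm, neural ectoderm and neural crest lists had 0 calls on 6 libraries among 12, 7 and 8 tested members. None of the 38 HOX genes reached the filter.

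Genes of the amino acid response had small differences that lay mostly on the RUES2 side. ATF4 is a transcription factor that induces enzymes of amino acid synthesis and uptake under stress. Of 22 tested members of its list and the unfolded protein response, 9 were apart with RUES2 higher and 0 with RUES2 lower, beside 8.48% and 6.17% of all genes, and the median log2 difference was 0.41. None passed on 6 libraries and 6 passed with all 12 (STC2, SESN2, SLC7A11, ASNS, PSAT1 and PHGDH). Summed levels were 1443 to 1566 FPKM in H9 and 1948 to 2123 FPKM in RUES2.

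ASNS, asparagine synthetase, was at 78.6, 78.2 and 79.8 FPKM in H9 and at 142, 131 and 109 FPKM in RUES2 (log2 difference 0.67, adjusted p = 0.137 with 6 libraries and 0.00354 with 12, limma). PHGDH, the first enzyme of serine synthesis, was at 227, 238 and 249 FPKM in H9 and at 336, 339 and 300.1 FPKM in RUES2 (adjusted p = 0.215 and 0.0203). The cystine transporter gene SLC7A11 was at 4.43, 4.56 and 3.87 FPKM in H9 and at 7.95, 7.81 and 7.34 FPKM in RUES2 (adjusted p = 0.0817 and 0.0335). In each, the 3 H9 libraries lay close together below all RUES2 libraries. Positive differences were found at 20 of 21 hypoxia targets, 16 of 22 glycolysis genes and 18 of 19 p53 targets. Their median log2 differences were 0.508, 0.195 and 0.201. Hypoxia targets (4 of 21 apart and higher, 0 lower), glycolysis (2 of 22, 0 lower) and p53 targets (3 of 19, 0 lower) also had no member called on 6 libraries. Over all genes 8.48% were apart with RUES2 higher and 6.17% with RUES2 lower, so the glycolysis count is near the background.

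**Figure D5:**
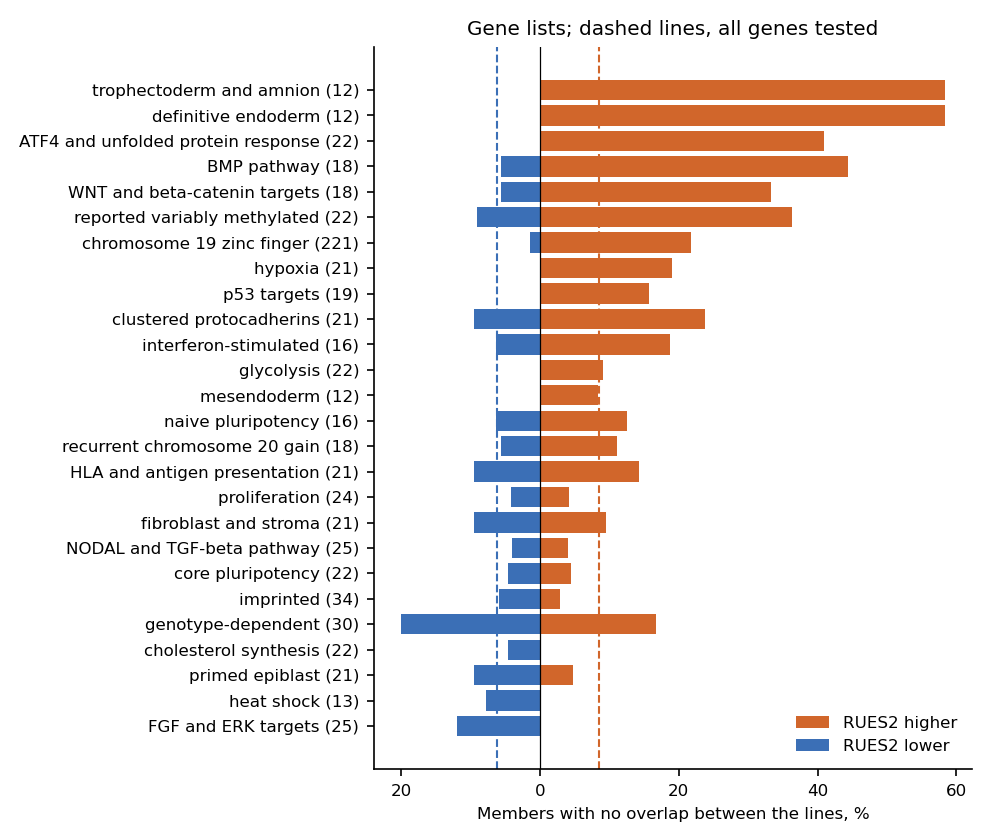
Share of the tested members of each gene list (horizontal axis, percent) whose levels did not overlap between the 3 H9 and 3 RUES2 libraries, with RUES2 higher to the right and RUES2 lower to the left. Numbers in brackets are tested members, some genes are on several lists, and dashed lines mark all 13047 genes (8.48% and 6.17%). The trophectoderm and definitive endoderm lists, with 7 of 12 members each, reach furthest to the right.

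Lists of known variation between lines held members apart in both directions. Of 22 tested genes reported as variably methylated in pluripotent lines, 2 were called higher (TSPYL5 and FRG1B), and 8 were apart with RUES2 higher and 2 with RUES2 lower. Over all genes 0.192% were called higher, and 8.48% and 6.17% were apart. Of the 22, 3 (TSPYL5, ZNF572 and BHMT2) were under 1 FPKM in every H9 library and entered only through RUES2. TSPYL5 on chromosome 8 was at 0, 0.948 and 0.417 FPKM in H9 and at 6.67, 5.56 and 6.62 FPKM in RUES2 (log2 difference 2.37 ± 0.25, SE, adjusted p = 0.025, limma). FRG1B was at 3.04, 3.21 and 2.69 FPKM in H9 and at 9.63, 15.5 and 9.70 FPKM in RUES2 (adjusted p = 0.0421, limma). FRG1B is 1 of several near-identical copies of FRG1, so its level is uncertain.

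Of 30 tested genes known to depend on genotype, 5 were apart with RUES2 higher and 6 with RUES2 lower, beside 8.48% and 6.17% of all genes, and 0 were called on 6 libraries with short RNAs included. HLA-DQB1, a class II antigen gene, was at 7.39, 7.42 and 12.4 FPKM in H9 and at 1.13, 0.79 and 2.04 FPKM in RUES2 (log2 difference -2.12, adjusted p = 0.0575 with 6 libraries, 0.0157 with 12 and 0.03 on 6 with short RNAs left out, limma). HLA alleles differ from the reference sequence, and copies on alternative contigs were left out, so levels of HLA genes are uncertain. KANSL1-AS1, from a region of chromosome 17 with a common inversion, was at 6.43, 3.60 and 4.19 FPKM in H9 and at 1.74, 1.72 and 1.45 FPKM in RUES2 (adjusted p = 0.152 and 0.0361). Of 34 tested imprinted genes, 0 were called on 6 libraries. ZDBF2, expressed from the paternal allele, was at 4.58, 4.32 and 5.07 FPKM in H9 and at 2.08, 3.32 and 1.90 FPKM in RUES2 (adjusted p = 0.254 and 0.0268).

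Clustered protocadherins, cell adhesion proteins of neurons, had 0 of 21 tested members called on 6 libraries. PCDHGA11 was at 0.447, 0.412 and 0.917 FPKM in H9 and at 2.27, 1.89 and 2.65 FPKM in RUES2 (adjusted p = 0.128 with 6 libraries and 0.0112 with 12, limma). Since PCDHGA11 was under 1 FPKM in every H9 library, it entered the comparison only through RUES2. PCDHGC3 lay the other way, at 10.2, 14.3 and 7.32 FPKM in H9 and at 4.37, 4.21 and 5.89 FPKM in RUES2 (adjusted p = 0.269 and 0.0356). The summed level of the list overlapped, at 43.8 to 65.6 FPKM in H9 and 50.4 to 58.0 FPKM in RUES2.

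The long arm of chromosome 20 carries a segment that human pluripotent lines often gain in culture. Of 18 tested genes there, 0 were called on 6 libraries, 2 were apart with RUES2 higher and 1 with RUES2 lower, near the 8.48% and 6.17% of all genes, and the median log2 difference was 0.07. BCL2L1, the survival gene of that segment, was at 22.7, 23.9 and 24.0 FPKM in H9 and at 32.2, 29.2 and 32.1 FPKM in RUES2, without overlap (log2 difference 0.39, adjusted p = 0.215 with 6 libraries and 0.0455 with 12, limma).

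The naive libraries offered a second set of cultures that shares no library with the primed comparison, read as labelled because of the mismatch described above. Naive cells of both labels grew with 20 ng/mL LIF, 1 µM PD0325901 and 3 µM CHIR99021. Of the same 13047 genes, 2773 (21.3%) differed between naive libraries labelled RUES2 and naive H9, 1793 of them higher and 980 lower. Of the 24 called primed genes that are not short RNAs, 20 had the same direction there, 14 were called in the same direction, and 1 was called in the opposite direction. SMIM3 was at 32.9, 32.1 and 29.9 FPKM in naive H9 and at 1.35, 1.31 and 1.96 FPKM in the naive libraries labelled RUES2. ZNF736 stood at 0.0304 to 0.0563 FPKM and at 2.37 to 2.69 FPKM. Both thus had the primed arrangement, whereas CCDC152 was under 0.05 FPKM in all 6 naive libraries.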

How the data were processed

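Expression was measured by poly(A) RNA-seq in 12 libraries, of which the 6 primed ones were compared. The genome build was hg19 and the tools were TopHat2 2.1.1 and bcl2fastq 2.17.1.14, per the submitters' processing notes. No source used here names the program behind the expression values, its annotation or the strandedness. In each table the authors deposited FPKM per gene, per the file headers, while the design text speaks of RPKM, and the values were treated as FPKM. The depth is known only through the confidence bounds, and no count test was possible.

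Each table held 25278 rows. Rows off chromosomes 1 to 22 (2537) and 2 rows with a failed status (KCNK15 and RIMS4) were left out, and 189 names with several loci kept only the locus of highest primed mean. The 13047 genes that reached 1 FPKM in 3 or more of the 6 libraries entered a two-sided limma test (limma 3.58.1, R 4.3.3) of log2(FPKM + 1), with an empirical Bayes variance trend and Benjamini-Hochberg adjustment over all of them, at a threshold of 0.05. "Apart" means that no library of 1 line lay within the range of the other. On simulated data with 13047 genes, changes were planted only in genes with a mean level above about 5 FPKM. Of these, 73% of changes of 1 log2 unit and 93% of changes of 2 units were recovered, with 10 unchanged genes called. Recovery at lower levels, where most of the called genes stood in H9, was not tested. The alternatives were another pseudocount, filter, scaling or variance model, all 12 libraries, a replicate block, all rows, each library left out, and short RNAs left out (the last chosen after the data were seen).

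The members and gene lists were chosen with earlier results of these data known. Genes were named by rule: called genes apart between the lines that averaged 5 FPKM or more in a group, up to 4 members a list, pluripotency genes, and genes on in 1 line and off in the other. Other called genes, neighbours, and genes of single libraries were named after their values were seen. Promoters were matched by symbol to RefSeq for 9925 of 13047 tested genes (76.1%) and 12 of the 22 genes called higher, too few for a comparison of CG content, which is void. Python 3.11.15, numpy 2.4.6, pandas 2.3.3 and matplotlib 3.10.9 were used for tables and plots.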

Additional observations from a re-analysis of the deposited data

Results flagged for a closer look

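In 10 named genes the lines were apart in opposite directions in the primed and in the naive libraries, and this difference between states was not tested. The naive groups are read as labelled, and 3 of the 12 libraries, none primed, did not match the primed libraries of their labelled line. ZNF662, CR1L and FRG1B were called higher in primed RUES2, while their naive log2 differences (labelled RUES2 minus H9) were -0.34, -0.50 and -0.24. CR1L, a complement receptor relative, was at 16.2, 16.2 and 19.6 FPKM in naive H9 and at 13.9, 9.11 and 13.2 FPKM in naive libraries labelled RUES2. Among genes apart but not called in primed cells, C9orf64 had a naive log2 difference of -2.77, AXIN2 of -0.88, SLC7A11 of -0.86, NOG of -0.44, INPP5F of -0.39 and GATA3 of -0.29. HLA-DQB1, lower in every primed RUES2 library, had a naive difference of 1.36. These genes were searched among a selection of called genes, neighbours, list members and genes of single libraries, not among all genes tested.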

How the results depend on the processing

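The 25 genes higher and 4 lower became 13 higher with a pseudocount of 0.1, 7 with a filter of 5 FPKM, 16 with quantile normalization, and 195 higher and 70 lower with all 12 libraries. No other setting of filter, scaling, variance model or rows moved either count by more than 1.5 times. Leaving out 1 library gave 8 to 24 higher and 4 to 20 lower genes: 10 and 4 without H9 replicate 1, 16 and 4 without H9 replicate 2, 16 and 7 without H9 replicate 3, 9 and 4 without RUES2 replicate 1, 24 and 20 without RUES2 replicate 2, and 8 and 5 without RUES2 replicate 3. Of the 24 called genes other than short RNAs, 4 (CTSF, LOC100216479, CCDC152 and QPCT) passed in all 6 of these fits, and 0 changed direction in any setting. With short RNAs left out, 27 were higher and 5 lower. A fit with the replicate number as a block gave 8 higher and 4 lower, and 5 of the 24 called genes other than short RNAs passed in it. Deviations of same-numbered libraries correlated at 0.08, 0.17 and -0.03, and those of differently numbered libraries at -0.23 to 0.14. The 0.17 of the replicate 2 pair was the highest value. The numbers were not taken to pair the samples, and whether they do was not tested. Low-level genes, 18 of the 22 higher ones, rest on few fragments in H9, and the naive libraries lend their smaller spread to the 12-library fit.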
